A study of Mus musculus with 16 samples.

Results

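The genes described here are 39 genes of the synaptic vesicle and its release machinery, chosen by name from a table of 49315 mouse genes; all 39 were found, and all 39 passed the filter on low counts that kept 17469 genes for testing. They were measured by RNA sequencing of hippocampus in 16 mouse libraries, each with its own animal tag. The mice were wild-type (WT) or knockout (KO) for Kcna1, which encodes a voltage-gated potassium channel of axons and terminals, and were fed a standard or a ketogenic diet, with 4 libraries in each of the 4 groups. Kcna1 knockout mice are a known model of epilepsy, and a ketogenic diet is rich in fat and poor in carbohydrate. The labels name no treatment other than diet. The knockout allele, strain, age, sex and length of feeding are not given in the sources used here.

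A nerve terminal stores transmitter in vesicles, docks and primes them at the active zone, fuses them with the membrane when calcium enters, and then retrieves the membrane. Fusion is driven by SNARE proteins on vesicle and plasma membrane. RIM and Munc13 proteins dock and prime the vesicles, some synaptotagmins sense calcium, complexins clamp and assist the SNARE complex, and synapsins hold the reserve of vesicles. In hippocampus most terminals are glutamatergic and load their vesicles through Slc17a7, the vesicular glutamate transporter VGLUT1.

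The promoters of 3 members are shown: Rims1 and Unc13a had the smallest p-values between genotypes on the standard diet, and Sv2c had the largest log2 fold change of the members between genotypes on each diet. Rims1 encodes the active zone scaffold RIM1, Unc13a encodes the priming factor Munc13-1, and Sv2c encodes a vesicle glycoprotein. Each sequence covers the 250 bases before the RefSeq start on GRCm38.p6, is read on the minus strand at chr1:22806159-22806408, chr8:71671758-71672007 and chr13:96132578-96132827 respectively, and holds 0 bases of annotated exon. Capitals mark the GC box, GGGCGG or its reverse complement CCGCCC.
Rims1: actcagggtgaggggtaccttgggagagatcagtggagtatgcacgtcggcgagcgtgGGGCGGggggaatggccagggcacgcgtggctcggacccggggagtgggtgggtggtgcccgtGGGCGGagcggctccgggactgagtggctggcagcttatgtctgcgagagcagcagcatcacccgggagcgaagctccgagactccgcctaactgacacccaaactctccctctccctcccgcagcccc
Unc13a: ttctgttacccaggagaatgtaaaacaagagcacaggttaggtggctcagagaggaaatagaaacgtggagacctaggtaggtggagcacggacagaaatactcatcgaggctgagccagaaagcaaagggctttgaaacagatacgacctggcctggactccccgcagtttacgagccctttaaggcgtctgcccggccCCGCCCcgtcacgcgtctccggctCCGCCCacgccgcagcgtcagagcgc
Sv2c: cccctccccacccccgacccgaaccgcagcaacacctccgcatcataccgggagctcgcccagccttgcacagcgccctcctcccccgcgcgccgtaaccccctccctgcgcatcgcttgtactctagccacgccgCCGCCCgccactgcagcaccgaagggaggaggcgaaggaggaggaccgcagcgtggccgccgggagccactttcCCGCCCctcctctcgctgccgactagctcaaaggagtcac
Each of the 3 windows held 2 GC boxes, with G or C at 68%, 58% and 70.8% of bases in the order printed. RefSeq gave 41 such windows for 31 of the 39 members, and Cplx2 was not among them. The GC box was found on either strand in 22 of the 41 (53.7%), against 32.7% of 32851 windows of all genes, and the median GC content was 60.8% against 52.4%. The TATA box letters TATAAA occurred in 2 of the 41 windows (4.88%), both of Sv2b, against 12.4% of all windows. Syn1 alone held the left part of the RE1 element, TTCAGCACC, and the cAMP response element, TGACGTCA, which occurred in 0.301% and 1.55% of all windows. None of these 4 motifs contains another. The matches describe letters only.

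Libraries held 13440230 to 22309504 counts, and the 39 genes took 1.92% to 2.27% of them. Values below are counts-per-million (CPM) scaled by trimmed mean of M values. Libraries are named by the animal tag in the table: KC890RL, KC894RLL, KC897RR and KC900RLL (WT, standard diet), KC872RL, KC873RR, KC888LL and KC893RL (KO, standard), KC842L, KC843RL, KC844RR and KC846L (WT, ketogenic), and KC913RR, KC916RRL, KC934R and KC935LL (KO, ketogenic). Values given in a row follow this order. Kcna1 was at 107.3 to 130.1 CPM in the 8 WT libraries and at 43.4 to 47.2 CPM in KO libraries other than KC888LL, where it was at 82 CPM, between both genotypes. KC888LL therefore goes partly against its label, and the members' edgeR calls, and their counts and medians over all 39, are given with and without it. The edgeR log2 fold change of Kcna1 in KO against WT was -1.13 (adjusted p = 0.0339) on the standard diet, a call kept in 1 of 8 fits that left out a library (log2 -1.04 to -1.39), and -1.38 (adjusted p = 0.0032) on the ketogenic diet. Gfap, the filament of reactive astrocytes, was at 288.3 to 390.4 CPM in WT libraries and in KC888LL, KC916RRL and KC935LL, and at 2327, 1340, 611.3, 2018.4 and 1058.8 CPM in KC872RL, KC873RR, KC893RL, KC913RR and KC934R. Xist, which female cells transcribe, was at 4.43 to 41.1 CPM in KC890RL, KC872RL, KC873RR and KC846L and at 729.6 CPM or more in the other 12. The hippocampal marker genes Neurod6 (135.7 to 243.2 CPM) and Prox1 (108.1 to 208.8 CPM) were present in every library. In these bulk samples fewer cells of a type and less RNA per cell cannot be told apart.

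The 39 genes spanned a wide range of abundance. Per kilobase of exon, WT hippocampus on the standard diet was richest in Cplx2 (complexin 2), at 398.8 ± 14.8 CPM per kb (SD, n = 4). Slc17a7 (321.1 ± 17), Dnm1, the dynamin that cuts endocytic vesicles free (308.5 ± 17.1), the plasma membrane SNARE Snap25 (285.5 ± 8.89) and Cplx1 (278.7 ± 22.6) followed on the same scale. The neighbours Slc17a7 and Dnm1 in that order differed by less than their SD, as did Snap25 and Cplx1. Vamp2, the vesicle SNARE, was at 255.7 CPM per kb and Vamp1 at 12.5. Other families also spread widely: Syt1, the fast calcium sensor, was at 189.2 CPM per kb and Syt2 at 3.12, while Unc13a was at 44.7, Unc13b at 4.41 and Unc13c at 2.72. Syn3 (0.888) and Cplx3 (1.45) had the lowest levels per kb, though the mean of Cplx3 was lower in CPM (4.28 against 10.9). Length here is the union of all annotated exons, 12.3 kb for Syn3 and 22.7 kb for Unc13b. Levels per kb are therefore only approximate between genes. Cplx3 had as few as 28 counts in a library, the smallest count of any member.

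**Figure D1:**
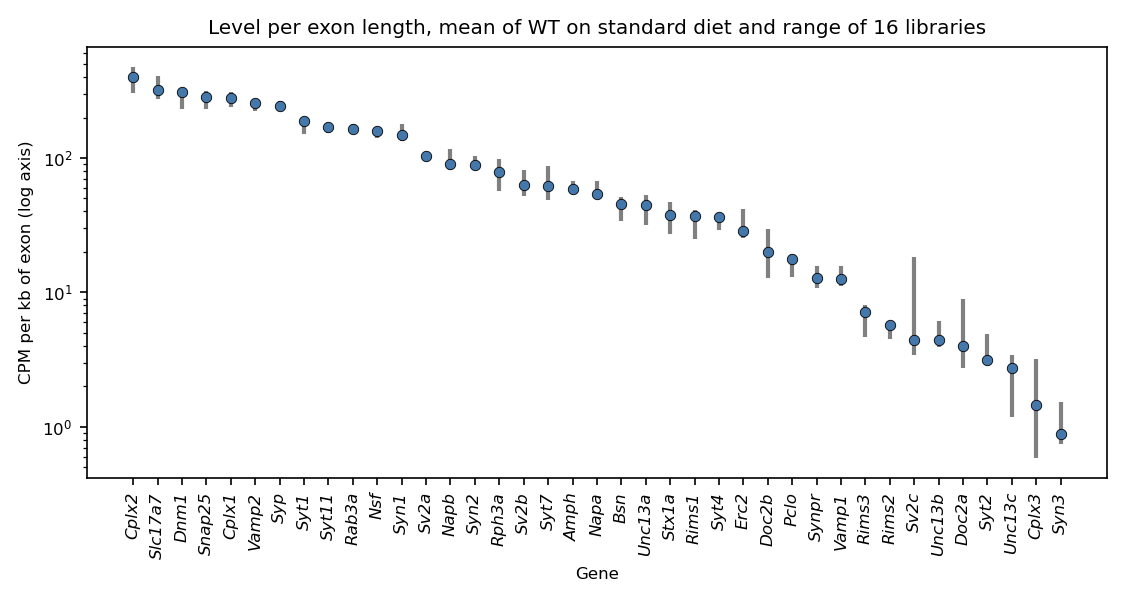
Level of each gene per kilobase of exon (CPM per kb, log axis). Points are the mean of the 4 WT libraries on the standard diet and grey lines run from the lowest to the highest of the 16 libraries, from 398.8 for Cplx2 to 0.888 for Syn3.

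Levels were steady for some members and loose for others. The highest library exceeded the lowest by 1.12 times for Sv2a, 1.16 times for Syt11, 1.17 times for Syp (synaptophysin) and 1.18 times for the vesicle GTPase Rab3a. The ratio reached 5.47 for Cplx3, 5.36 for Sv2c, 3.23 for Doc2a and 2.89 for Unc13c. Exons of Doc2a, a calcium-binding protein of spontaneous release, overlap those of Ino80e on the other strand over 39.4% of their length, those of Syp, Syt4 and Syn3 overlap antisense genes over 16.8%, 14.5% and 14.1%, and those of Unc13a overlap Colgalt1 over 3.9%. Strand use in counting is not given in the sources used here, so reads from such partners cannot be told apart. Ino80e itself was at 25.4 to 34.3 CPM and Colgalt1 at 57.5 to 79.6 CPM over the 16 libraries, and neither was called in a comparison of groups.

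**Figure D2:**
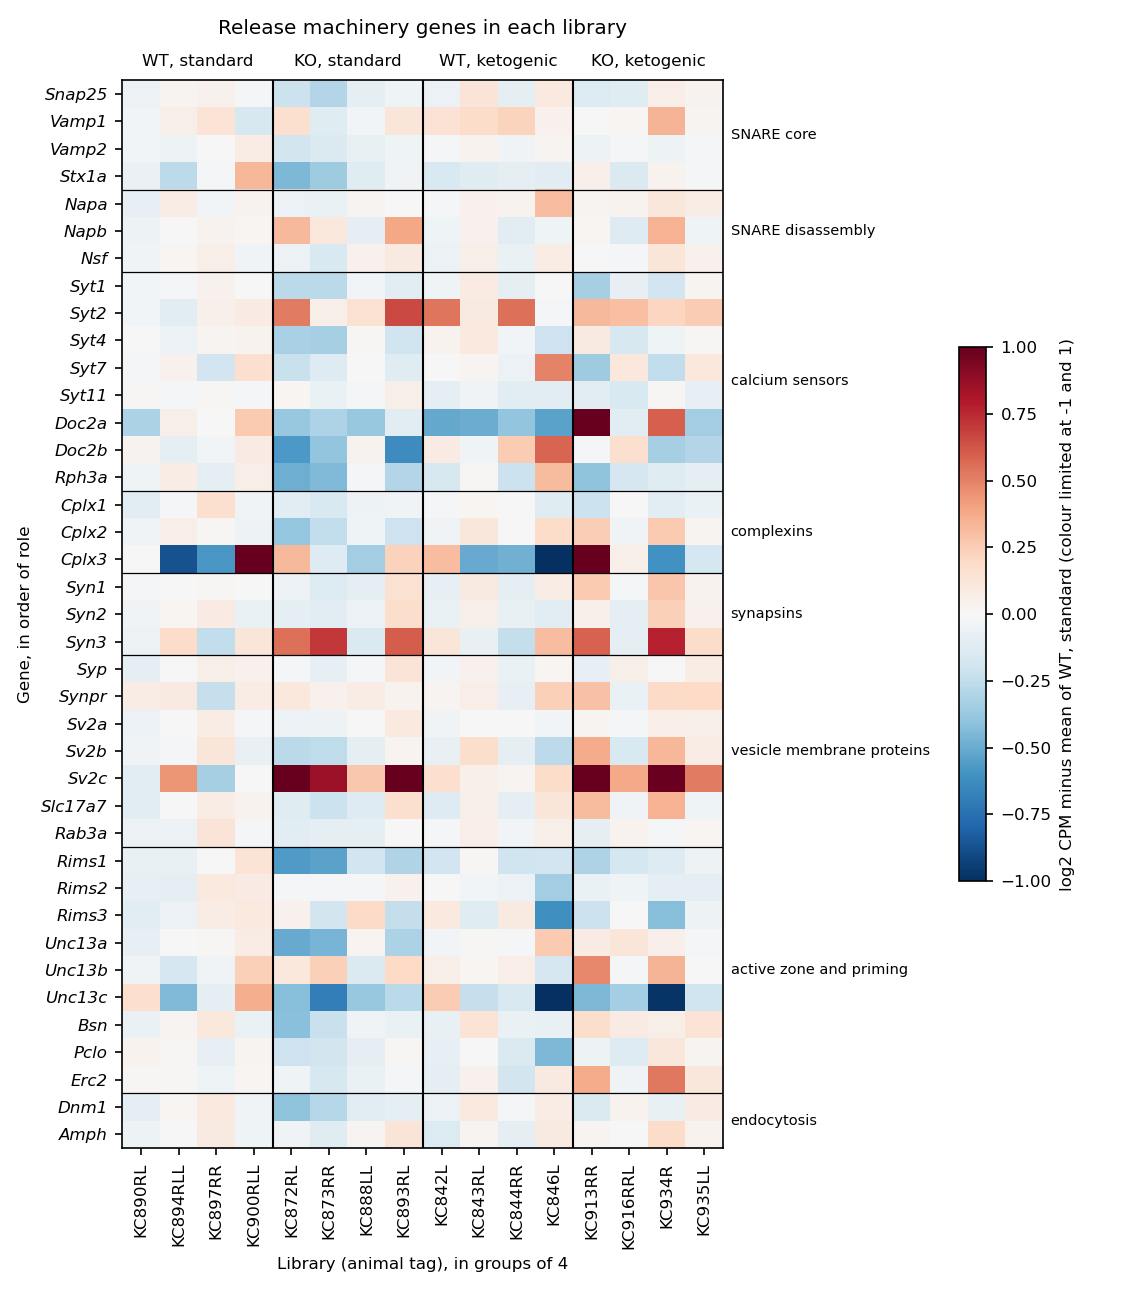
Log2 CPM of each gene (grouped by role) in each library, minus the mean of the 4 WT libraries on the standard diet; blue is lower, red is higher, and the scale ends at -1 and 1. KC872RL and KC873RR, with 22 and 25 genes below the WT range, show the most blue, and Sv2c is red in the KO libraries, at 50.4 to 178.6 CPM.

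The first comparison asked how knockout hippocampus differed from WT on the standard diet. Rims1 and Unc13a, of docking and priming, had the smallest p-values among the members and lower means in the knockouts, while Sv2c, Syt2 and Syn3 had higher means. The edgeR quasi-likelihood test called 0 of the 39 genes at an adjusted p under 0.05, where it called 0.00572% of tested genes, which is Kcna1 itself. At an unadjusted p under 0.05 it passed 12 lower and 3 higher members (38.5%), where 14.3% of tested genes passed, 6.69% lower and 7.64% higher. Of the members 30 lay below 0 and 9 above, with a median log2 fold change of -0.078 (-0.045 without KC897RR) against 0.004 for tested genes. DESeq2 called 1 member, Rims1, among 173 of 33151 genes (0.522%), and limma-voom called 0 members. The DESeq2 shares here and below are over all genes with any count, also those that the filter on low counts dropped. They cannot be set beside the edgeR shares.

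Rims1 lies at chr1:22286251-22805994 (GRCm38, GENCODE M21). It was at 259.9, 259.9, 274.8 and 301 CPM in WT and at 184.4, 188.5, 239.7 and 222.1 CPM in KO libraries. Each KO library was below each WT library, and KC888LL was the KO library nearest to WT. The log2 fold change was -0.39 ± 0.08 (SE; edgeR adjusted p = 0.176), the DESeq2 adjusted p was 0.00622, and the range over alternatives was 0.00364 to 0.653. Unc13a, at chr8:71624417-71671757, was at 533.8, 562.4, 568.3 and 593.6 CPM in WT and at 397.5, 408.5, 574 and 453.7 CPM in KO. KC888LL sat among the WT libraries, and the other 3 KO libraries lay below them, with a log2 fold change of -0.30 ± 0.09 (edgeR adjusted p = 0.202).

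Among the other active zone genes, Bsn (bassoon, a giant scaffold) had a log2 fold change of -0.18 (-0.11 without KC872RL) and Unc13c of -0.47, and 8 of the 9 in this role lay below 0 (median -0.117). Of the 8 synaptotagmin, Doc2 and rabphilin genes, grouped here as calcium sensors, 7 lay below 0 (median -0.185). Among them were Doc2b at -0.37, Rph3a (rabphilin, a Rab3 partner) at -0.30, Syt4 at -0.21 and Syt1 at -0.16. Syt11 also counted as below 0 but was level, at a mean of 888.7 CPM in WT and 888.6 CPM in KO. The 4 core SNARE genes gave -0.25 for Stx1a (-0.12 without KC900RLL, the highest library at 125.7 CPM), -0.16 for Snap25, -0.11 for Vamp2 and 0.03 for Vamp1, which lies 1.39 Mb from Kcna1 on chromosome 6. All 3 complexins lay below 0, with Cplx2 at -0.22. Dnm1, at 1523.6, 1636.5, 1734.4 and 1582.2 CPM in WT and 1224.8, 1329.8, 1501.7 and 1521.5 CPM in KO, also had groups that did not overlap, at -0.22 ± 0.07 (edgeR adjusted p = 0.212). Groups did not overlap for 2 members in the lower direction, Rims1 and Dnm1, and 0 in the higher, where 2.89% and 2.97% of tested genes did so.

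**Figure D3:**
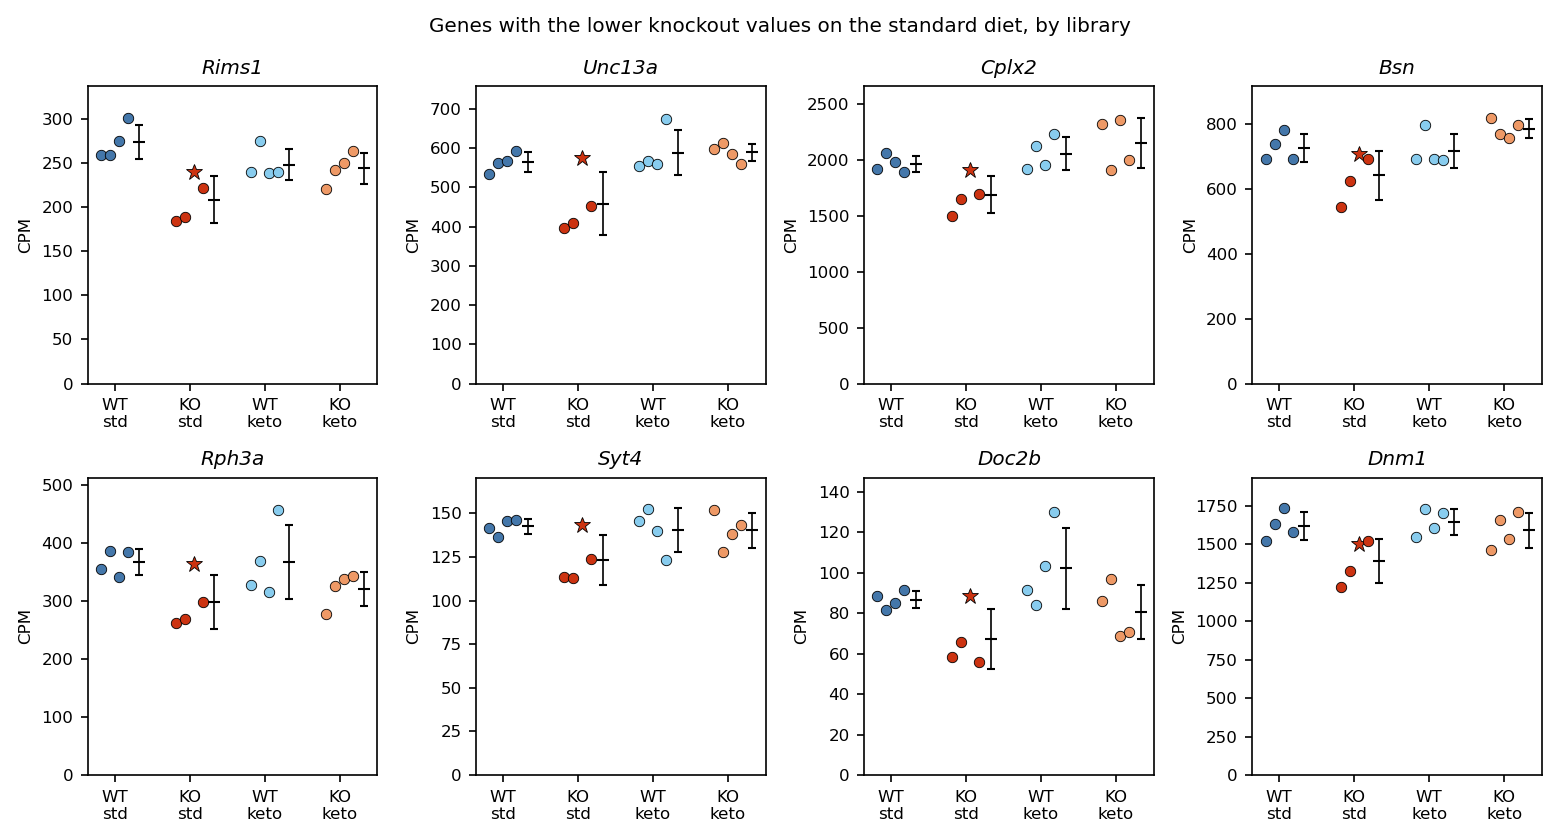
CPM per library of 8 genes chosen for low KO values on the standard diet. Points are libraries, the star is KC888LL, and the bar beside each group is the mean ± SD (n = 4); for Unc13a the star lies at 574 CPM, level with WT libraries at 533.8 to 593.6 CPM.

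Sv2c, Syt2 and Syn3 lay on the other side. Sv2c was at 38.8, 57, 33.3 and 41.8 CPM in WT and at 87.3, 76.3, 50.4 and 87.9 CPM in KO libraries. KC888LL again fell in the WT range, and the log2 fold change was 0.82 ± 0.34 (edgeR adjusted p = 0.301). Syt2, the synaptotagmin of fast inhibitory terminals, was at 23.4, 22.1, 24.7 and 25.2 CPM in WT and at 34.1, 24.8, 26.5 and 37.7 CPM in KO. Its groups overlapped at KC873RR, and the log2 fold change was 0.37 ± 0.14 (edgeR adjusted p = 0.245). The 3 genes of SNARE disassembly, the vesicle membrane proteins and the synapsins had medians of -0.019, -0.002 and -0.02.

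Leaving out KC888LL gave other calls. edgeR then called 1016 of 17725 tested genes (5.73%) and 7 of the 39 members. The 6 members that fell were Unc13a (log2 fold change -0.43, adjusted p = 0.00297), Rims1 (-0.47, 0.00364), Syt4 (-0.29, 0.0256), Rph3a (-0.41, 0.0364), Cplx2 (-0.29, 0.0387) and Doc2b (-0.54, 0.0416), all by edgeR. The member that rose was Syn3 (0.61, edgeR adjusted p = 0.0483), whose exons overlap Timp3. Again 30 members lay below 0, with a median of -0.105 against 0.004 for tested genes, and 4 higher and 12 lower members passed an unadjusted p under 0.05 (41%), where 21.3% of tested genes did. Groups of 4 and 3 libraries did not overlap for 3 higher and 9 lower members, where 10.5% and 11.7% of tested genes did so. Sv2c gave 0.97 ± 0.35 (edgeR adjusted p = 0.135), Syt2 0.43 ± 0.14 (0.0832) and Dnm1 -0.26 ± 0.08 (0.0553). The active zone genes had a median of -0.128, with 8 of 9 below 0, and the calcium sensor group of -0.248, with 6 of 8 below 0. No other library, when left out, gave a call for a member in this comparison. The KO libraries left without KC888LL were KC872RL and KC873RR, with low Xist (4.43 and 5.48 CPM), and KC893RL (785.4 CPM). In WT on the standard diet only KC890RL had low Xist (41.1 CPM). The Xist covariate was not fitted without KC888LL, so the part of this imbalance in these calls was not tested.

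Marker lists of other cell types also differed between these libraries. The summed level of 9 tested of 10 listed pyramidal and granule cell markers was 1374, 1490.3, 1703.4 and 1437.2 CPM in KC872RL, KC873RR, KC888LL and KC893RL, against 1559.7 to 1703.3 CPM in WT. Their median log2 fold change was -0.236, with 8 of 9 below 0, 2 lower at an unadjusted p under 0.05 and 0 called. The 12 microglial markers summed to 304.8 to 346.9 CPM in WT and to 686, 681.3, 315.4 and 331.2 CPM in KO, with 12 of 12 above 0 and 0 called. The 10 astrocyte markers summed to 4830.6 to 5407.9 CPM in WT and to 7430.8, 7096.4, 5012.4 and 5503.8 CPM in KO, with 10 of 10 above 0 and 0 called, and the 9 reactive astrocyte markers to 382.9 to 509.5 and 452.5 to 2894.1 CPM. The 12 pan-neuronal markers gave 5486.4 to 5748.4 CPM in WT and 5223.1 to 5795.6 CPM in KO, with a median log2 fold change of -0.055. Beside Syt2, the 10 interneuron markers summed to 1048.9 to 1130.3 CPM in WT and 1095 to 1373.3 CPM in KO, with 9 of 10 above 0 and 0 called, and 10 thalamus markers to 168.3 to 232.1 and 146.8 to 247.9 CPM, with 8 of 10 above 0 and 0 called. No tested marker of these lists was at 0 in any library, and Lcn2, a reactive astrocyte marker that did not pass the filter, had 0 to 68 counts per library. The part of these lists in the members' values was not tested. KC872RL and KC873RR, which had the most members below the WT range, are also the KO libraries with low Xist and with the highest microglial, astrocyte and reactive astrocyte sums. With Xist as a covariate the members' median was -0.049, Rims1 gave -0.32 (edgeR adjusted p = 0.363), Bsn -0.12 and Syt4 -0.14.

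Diet within the knockouts gave the comparison in which a member passed the test. Cplx2, complexin 2, rose on the ketogenic diet, and the active zone genes Unc13a, Bsn and Erc2 had the next smallest p-values, each with a higher mean. The KO libraries on the standard diet are shared with the comparison above, so the values of both comparisons are not independent. edgeR called 1 of 39 members, where it called 1.16% of tested genes with 0.206% higher and 0.95% lower. At an unadjusted p under 0.05, 12 members were higher and 0 lower (30.8%), where 16.9% of tested genes passed, 7.83% higher and 9.1% lower. Of the members 31 lay above 0, with a median of 0.096 against 0.007 for tested genes.

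Cplx2 (chr13:54371349-54383917) was at 1501.7, 1652.2, 1909.5 and 1699.5 CPM on the standard diet and at 2327.4, 1915.4, 2360.9 and 2003.5 CPM on the ketogenic diet. The highest standard library, KC888LL, was just below the lowest ketogenic library, KC916RRL, and WT on the standard diet stood at 1895.2 to 2059.3 CPM. The log2 fold change was 0.35 ± 0.08 (edgeR adjusted p = 0.0394), higher in 4 of 4 libraries. The call was lost when KC872RL (0.159), KC873RR (0.121), KC893RL (0.0612), KC913RR (0.0922) or KC934R (0.0764) was left out (edgeR adjusted p in brackets), and kept without each of the other 3. It was also lost with Xist (0.215) or the oligodendrocyte score (0.709) as a covariate and in a fit of these 8 libraries alone (0.226). That score, the mean log2 CPM of 12 markers, was 7.14 to 7.36 on the standard and 5.83 to 6.73 on the ketogenic diet. It did not overlap between the diets, so the fit with it cannot tell score and diet apart.

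Bsn (chr9:108096022-108190384) was at 543.4, 622.4, 705.7 and 691.2 CPM on the standard diet and at 819, 767, 755.9 and 796.1 CPM on the ketogenic diet. Its groups did not overlap, as for Cplx2, and 2.68% of tested genes were higher without overlap. Its log2 fold change was 0.29 ± 0.08 (edgeR adjusted p = 0.0663). Unc13a was at 597.5, 613.6, 585.9 and 560.6 CPM in ketogenic KO libraries, all in or above the WT range on the standard diet, and only KC888LL of the standard KO libraries reached that level. Its log2 fold change was 0.36 ± 0.09 (edgeR adjusted p = 0.0655). Erc2, another active zone scaffold, gave 0.33 ± 0.09 (edgeR adjusted p = 0.087), with KC934R (403.7 CPM) and KC913RR (362.1 CPM) above the rest.

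The remaining members at an unadjusted p under 0.05 were Doc2a (log2 fold change 0.74), Sv2b (0.31), Rims1 (0.23), Slc17a7 (0.23), Stx1a (0.22), Dnm1 (0.19), Syt4 (0.18) and Syn1 (0.18). All 7 vesicle membrane genes and all 4 core SNARE genes lay above 0, with medians of 0.096 and 0.099. Rims2, another RIM, was lower without overlap, as 3.72% of tested genes were, at 58.7 to 61.1 CPM on the standard diet and 55.7 to 57.7 CPM on the ketogenic diet, with a log2 fold change of -0.07 and edgeR adjusted p of 0.637. DESeq2 called 5 members higher, Cplx2, Bsn, Unc13a, Erc2 and Doc2a, among 672 of 33151 genes (2.03%), and limma-voom called Cplx2 among 156 of 17469 genes (0.893%).

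Without KC888LL, edgeR called 1096 of 17725 genes (6.18%) and 5 members, all higher. These were Unc13a (log2 fold change 0.49, adjusted p = 0.00174), Cplx2 (0.42, 0.0058), Bsn (0.35, 0.0158), Rims1 (0.30, 0.0329) and Syt4 (0.27, 0.0344). Then 32 members lay above 0, with a median of 0.102 against 0.009 for tested genes, and 11 higher and 1 lower passed an unadjusted p under 0.05 (30.8%), where 21.8% of tested genes did. Groups of 3 and 4 libraries did not overlap for 6 higher members and 1 lower, where 7.79% and 8.3% of tested genes did so. KC872RL and KC873RR, with low Xist, then made up most of the standard group, while no ketogenic KO library had low Xist. The part of this imbalance in these calls was not tested. The vesicle membrane genes had a median of 0.103 and the core SNARE genes of 0.12, all of them again above 0. Leaving out KC935LL added Doc2a (0.93, edgeR adjusted p = 0.0343), which was at 0.40 (adjusted p = 0.305) without KC913RR, and leaving out KC916RRL added Erc2 (0.42, 0.0413). Myelin genes moved over the same libraries: the 12 oligodendrocyte markers summed to 5326.8 to 5900.2 CPM on the standard and 2057.7 to 3868.3 CPM on the ketogenic diet, and edgeR called 9 of the 12 lower. With their score as a covariate Cplx2 was at 0.22, Unc13a at 0.20, Erc2 at 0.18 and Dnm1 at 0.31, against 0.35, 0.36, 0.33 and 0.19 without it, and none of these 4 was called. Doc2a turned to -0.34 and Stx1a to -0.02, while Slc17a7 was at 0 (edgeR adjusted p = 0.999) and Syn1 at 0.07. Because the score did not overlap between the diets in KO, the values with this covariate cannot tell it apart from diet. With Xist as a covariate Sv2b was at 0.20, Rims1 at 0.13, Stx1a at 0.13 and Syt4 at 0.08. Markers of other cell types differed over these libraries too. The 12 microglial markers summed to 315.4 to 686 CPM on the standard and 283.3 to 305.4 CPM on the ketogenic diet, with 12 of 12 below 0 and 1 called. The 5 blood markers gave 65.8 to 113.3 and 17.4 to 32.5 CPM, with 4 of 5 called lower. The 6 choroid plexus markers gave 48.3 CPM in KC888LL and 190.3 to 552.7 CPM in the other standard libraries against 31.6 to 53 CPM, with a median log2 fold change of -3.00, 5 of 6 below 0 and 0 called. The 10 thalamus markers gave 146.8 to 247.9 and 117.3 to 207.3 CPM with 1 called, and the 10 astrocyte markers 5012.4 to 7430.8 and 4981.6 to 6366.4 CPM with 1 called. The pan-neuronal and the pyramidal and granule lists lay in the members' direction, where the members' median was 0.096. The 10 interneuron markers had a median of 0, with 5 of 10 above 0 and 0 called. The 10 thalamus markers had a median of -0.525, with 10 of 10 below 0. The 12 pan-neuronal markers summed to 5223.1 to 5795.6 CPM on the standard and 5476.6 to 6452.9 CPM on the ketogenic diet, with a median log2 fold change of 0.138, 9 of 12 above 0 and 1 called higher. The 9 pyramidal and granule markers summed to 1374 to 1703.4 and 1554.3 to 1813.3 CPM, with a median of 0.329, 8 of 9 above 0 and 0 called. The part of these marker lists in the members' values was not tested.

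**Figure D4:**
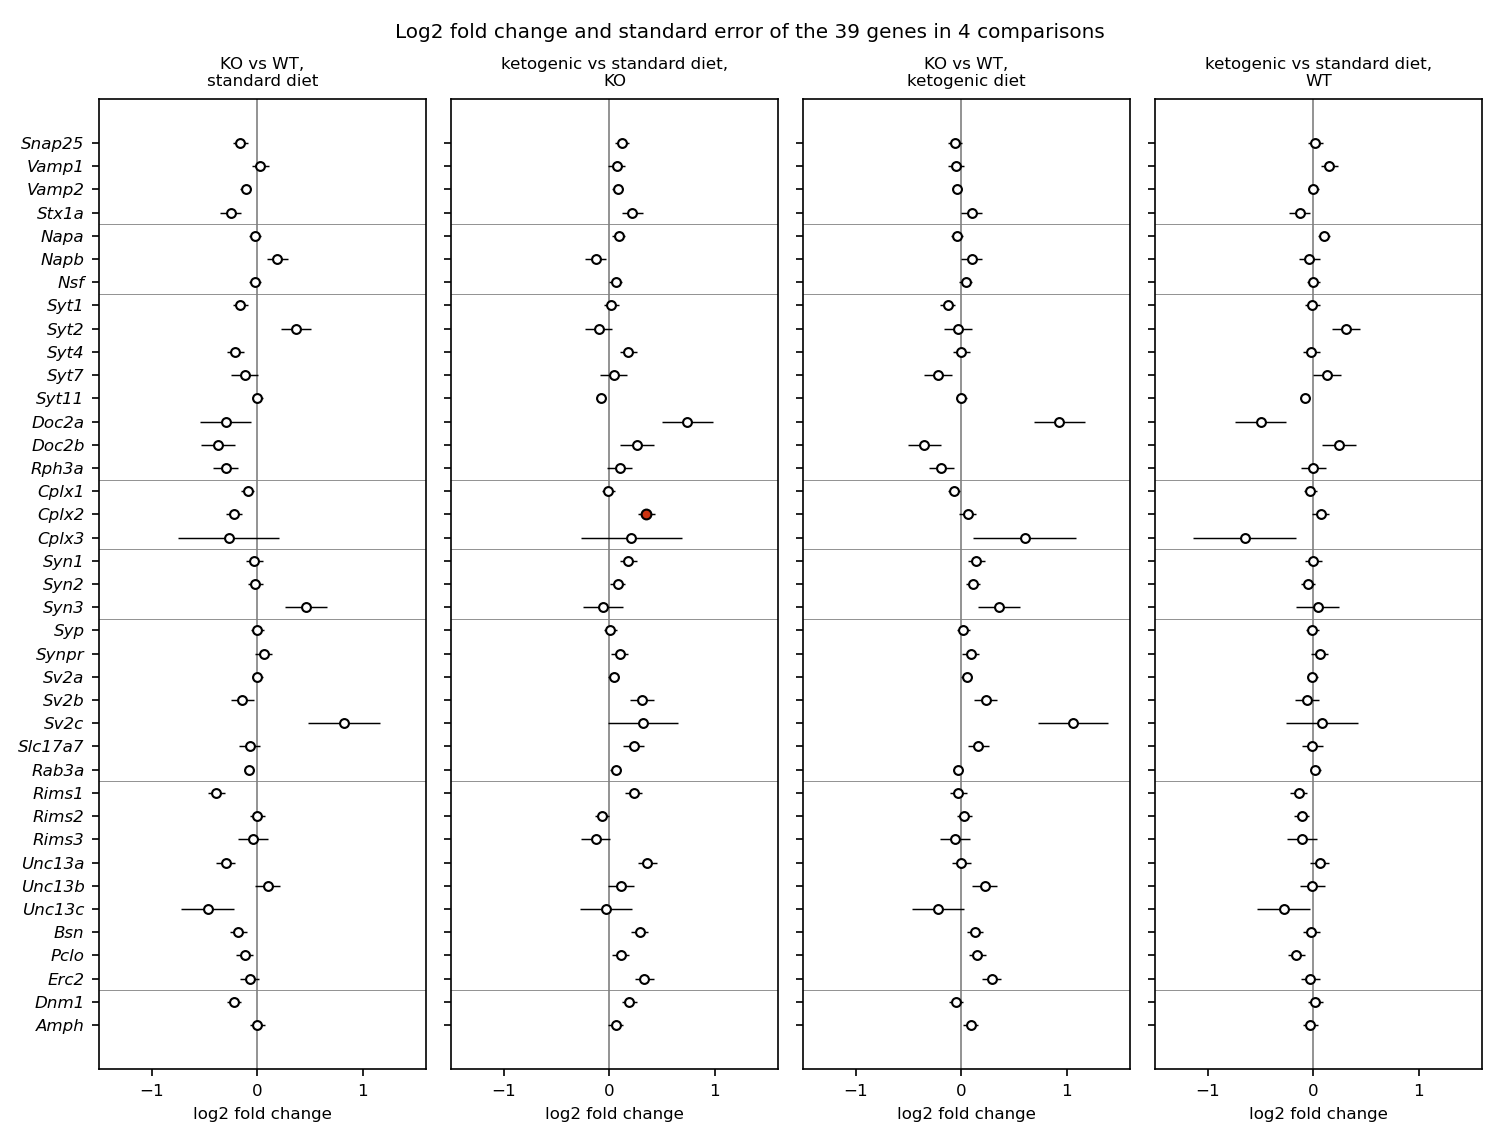
Log2 fold change (first group in each title minus the other) with SE for the 39 genes in 4 comparisons, in order of role. The filled red point is Cplx2 at 0.35, the member with an edgeR adjusted p under 0.05; open points did not pass.

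Between genotypes on the ketogenic diet, the members with the smallest p-values were Doc2a, Erc2 and Sv2c, each higher in KO. edgeR called 0 of 39 members, where it called 0.0172% of tested genes. At an unadjusted p under 0.05, 4 members were higher and 1 lower (12.8%), where 9.22% of tested genes passed, 5.24% higher and 3.97% lower. The members' median was 0.03 against 0.003, with 23 above 0 and 16 below. DESeq2 called 1 member, Doc2a, among 41 of 33151 genes (0.124%), and limma-voom called 0 members.

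Doc2a was at 7.82, 7.93, 8.48 and 7.7 CPM in WT and at 24.9, 10.3, 16.9 and 8.75 CPM in KO. The groups did not overlap, and KC913RR and KC934R stood well above the other KO libraries. The log2 fold change was 0.93 ± 0.24 (edgeR adjusted p = 0.378, DESeq2 adjusted p = 0.0357), and 0.59 without KC913RR. Sv2c was at 47.1, 43.3, 42.7 and 47.6 CPM in WT and at 178.6, 54.4, 82.9 and 60.1 CPM in KO, at 1.06 ± 0.33 (edgeR adjusted p = 0.417) and 0.55 without KC913RR. Every KO library was above every WT library for these 2 members, as for 2% of tested genes, and 0 members were lower without overlap, where 1.98% of tested genes were.

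Erc2 gave 0.29 ± 0.09 (edgeR adjusted p = 0.404) and Sv2b 0.23. In the lower direction Doc2b gave -0.35 ± 0.16 (edgeR adjusted p = 0.534) and Syt1 -0.13 ± 0.07 (0.598). Doc2b was at 91.4, 83.9, 103.5 and 129.8 CPM in WT and 85.8, 96.9, 68.6 and 70.7 CPM in KO, so the groups overlapped. Syt1 was at 1530, 1670.6, 1483.7 and 1571.3 CPM in WT and at 1250.6, 1487.6, 1380.7 and 1606.5 CPM in KO, with KC913RR and KC934R below each WT library. Syt1 gave -0.07 without KC913RR and Doc2b -0.21 without KC846L, and Erc2 gave 0.19 without KC934R. Rims1 and Unc13a, the leading genes on the standard diet, had log2 fold changes of -0.03 and 0 here. The 12 oligodendrocyte markers summed to 3538.7 to 4509.6 CPM in WT and 2057.7 to 3868.3 CPM in KO, with 12 of 12 below 0 and 0 called. With their score as a covariate Sv2c was at 0.48 (edgeR adjusted p = 0.849), Doc2a at 0.37 (0.77) and Syt1 at -0.03. The 5 blood markers summed to 42.7 to 105.4 CPM in WT and 17.4 to 32.5 CPM in KO, with 5 of 5 below 0 and 0 called. The 9 reactive astrocyte markers summed to 401.5 to 431.6 CPM in WT and to 2502.5, 388.4, 1289 and 398.7 CPM in KO, with 9 of 9 above 0, 6 at an unadjusted p under 0.05 and 0 called. KC913RR and KC934R, the KO libraries highest for Doc2a and Sv2c, also had the highest sums. The 12 pan-neuronal markers summed to 5426.2 to 5837.6 CPM in WT and to 6452.9, 5476.6, 6264.7 and 5600.5 CPM in KO, with the same libraries highest, 8 of 12 above 0, 4 higher at an unadjusted p under 0.05 and 0 called. The 10 interneuron markers summed to 1018 to 1097.6 CPM in WT and to 1413.3, 1085.8, 1324.5 and 1125.1 CPM in KO, with 8 of 10 above 0 and 0 called, and the 6 choroid plexus markers to 30.7 to 1040.6 and 31.6 to 53 CPM, with 0 called. The part of these lists, beyond the fit with the oligodendrocyte score, was not tested.

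**Figure D5:**
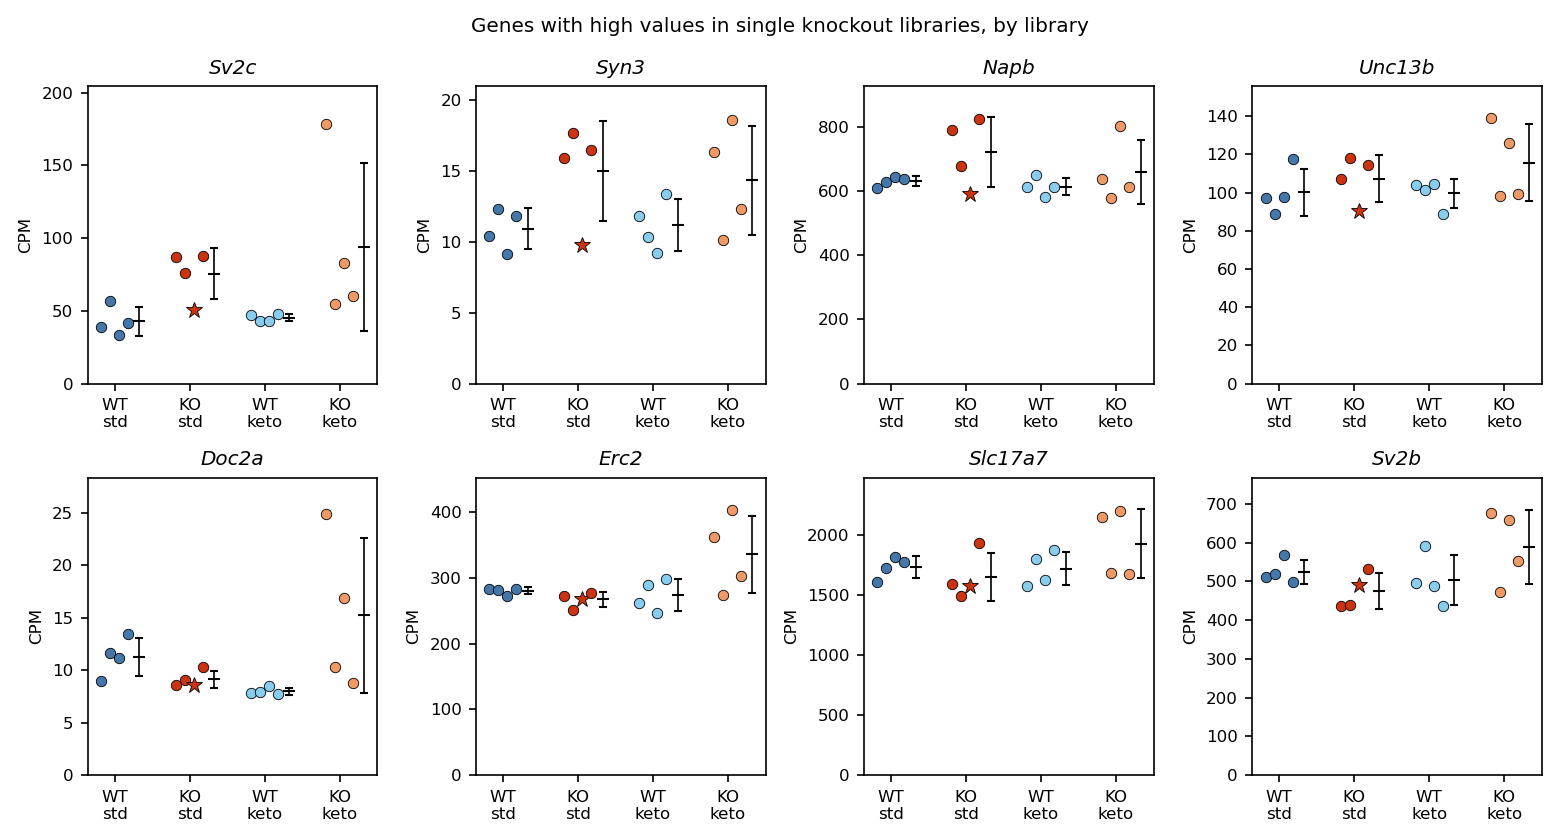
CPM per library of 8 genes chosen for high values in single KO libraries. Points are libraries, the star is KC888LL, and the bar beside each group is the mean ± SD (n = 4); KC913RR reached 178.6 CPM for Sv2c and 24.9 CPM for Doc2a.

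The KO libraries differed in how many of the 39 genes lay outside the WT range. KC872RL and KC873RR had 22 and 25 members below the lowest WT library of the same diet and 7 and 4 above the highest. KC893RL had 9 below and 12 above, and KC888LL 13 below and 2 above. Over tested genes these 4 libraries had 15.7% to 28.8% below and 15.6% to 29.8% above. On the ketogenic diet KC934R had 5 below and 18 above and KC913RR 11 and 14, while KC935LL had 2 and 8 and KC916RRL 5 and 3, with 20.1% to 31.3% of tested genes below and 19.6% to 30.4% above. Members high in both KC913RR and KC934R included Sv2b (677.7 and 657.7 CPM against at most 590.3 in WT), Slc17a7 (2151.7 and 2201.9 against at most 1879.5) and Syn1 (583.8 and 590.7 against at most 519.2). These are the ketogenic libraries with high Gfap, and the part of that difference was not tested.

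Diet in WT mice gave no called release gene, and Syt2, Doc2a, Pclo and Vamp1 had the smallest p-values. edgeR called 0 of 39 members, where it called 0.0114% of tested genes. DESeq2, which called 12 genes in all, and limma-voom called 0 members. Syt2 was the member at an unadjusted p under 0.05 (2.56%), where 5.46% of tested genes passed, 2.44% higher and 3.01% lower. It was at 34.5, 25.4, 34.8 and 23.5 CPM on the ketogenic diet, overlapping the standard diet, with a log2 fold change of 0.31 ± 0.13 (edgeR adjusted p = 0.885). Vamp1 gave 0.15 ± 0.08 (edgeR adjusted p = 0.951), from 123.9, 131.8, 139 and 113 CPM to 139.8, 143.8, 147.8 and 130.5 CPM, with 2 standard libraries among the ketogenic ones. Doc2a, at 8.98, 11.6, 11.1 and 13.4 CPM on the standard diet, was above each ketogenic library, at -0.50 ± 0.24 (edgeR adjusted p = 0.934). Pclo (piccolo), at 409.4, 401.8, 377.4 and 407.1 against 376.7, 399.5, 361.5 and 292.8 CPM, gave -0.16 ± 0.08 (edgeR adjusted p = 0.936) and -0.07 without KC846L, while Vamp1 gave 0.09 without KC900RLL. Groups did not overlap for 2 members in the lower direction, Doc2a and Syt11, and 0 in the higher, where 2.42% and 2.46% of tested genes did so. The median was -0.012, and 0 for tested genes. The 12 oligodendrocyte markers summed to 4286.4 to 6676 CPM on the standard and 3538.7 to 4509.6 CPM on the ketogenic diet, with 12 of 12 below 0, 11 at an unadjusted p under 0.05 and 0 called. With their score as a covariate Doc2a was at -0.99 (edgeR adjusted p = 0.191), Vamp1 at 0.25 (0.712) and Pclo at -0.08 (0.885).

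The interaction asked whether the genotype difference itself differed between diets. edgeR called 0 members and 0% of tested genes. DESeq2, which called 4 genes in all, and limma-voom called 0 members. At an unadjusted p under 0.05, 9 members were higher and 1 lower (25.6%), where 7.48% of tested genes passed, 3.38% higher and 4.09% lower. Of the members 32 lay above 0, with a median of 0.102 against 0.005, and of 0.062 without KC873RR, 0.065 without KC844RR, 0.067 without KC842L and 0.065 with the Xist covariate. Some lists of other neuronal genes lay on the same side: the median was 0.094 for the other presynaptic genes (37 of 57 above 0), 0.098 for the pan-neuronal markers (10 of 12) and 0.205 for the pyramidal and granule markers (8 of 9). The interneuron markers had a median of 0.056, with 6 of 10 above 0, and the thalamus markers of -0.479, with 7 of 10 below 0. The microglial markers had a median of -0.745 and the blood markers of -1.99, with 12 of 12 and 5 of 5 below 0. Oligodendrocyte markers had a median of -0.398 and choroid plexus markers of -2.466, with 12 of 12 and 5 of 6 below 0. The part of these lists was not tested. Doc2a gave a difference of log2 fold changes of 1.23 ± 0.34 and Rims1 of 0.37 ± 0.12 (both edgeR adjusted p = 0.654), and Doc2a 0.65 (0.861) with the oligodendrocyte covariate. In the lower direction Syt2 gave -0.40 ± 0.19 (edgeR adjusted p = 0.664) and Vamp1 -0.08 ± 0.12 (0.904). The active zone genes had a median of 0.267, with 8 of 9 above 0 and 5 at an unadjusted p under 0.05: Rims1, Bsn (0.31), Erc2 (0.36), Pclo (0.27, and 0.16 with the Xist covariate) and Unc13a (0.30). Without KC888LL edgeR called 0 genes, 34 members lay above 0 with a median of 0.098 against 0.006, and the active zone median was 0.275 with 9 of 9 above 0. There were 10 higher and 1 lower members at an unadjusted p under 0.05 (28.2%), where 11.5% of tested genes passed.

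The pathway's other presynaptic genes, 57 tested of 58 listed, lay closer to 0 on the standard diet. There 1 was higher and 3 lower at an unadjusted p under 0.05 (7.02%, against 14.3% of tested genes), 0 were called, and the median was 0.006 against -0.078 for the members. In the other comparisons the medians of the list and of the members were 0.056 and 0.03 between genotypes on the ketogenic diet, 0.033 and 0.096 for diet in KO, -0.024 and -0.012 for diet in WT, and 0.094 and 0.102 for the interaction. The difference between both lists was not tested. Between genotypes on the standard diet the smallest p-values of this list belonged to the liprins Ppfia3 (-0.24 ± 0.07, edgeR adjusted p = 0.202) and Ppfia2 (0.19 ± 0.07, 0.225). Ppfia3 was at 254.1, 254.4, 274.3 and 273.5 CPM in WT and at 195.8, 224.1, 244.3 and 230.3 CPM in KO, without overlap, and gave -0.29 (edgeR adjusted p = 0.0289) without KC888LL. Without that library 3 of the 57 were higher and 4 lower at an unadjusted p under 0.05 (12.3%, against 21.3% of tested genes). In the knockouts Dnm2, the widely expressed dynamin, fell on the ketogenic diet by 0.24 ± 0.06 on the log2 scale (edgeR adjusted p = 0.0482). It was at 75.9, 75.9, 66.8 and 66.9 CPM on the standard diet and at 57.6, 61.7, 60.4 and 62.5 CPM on the ketogenic diet, without overlap. That call was kept without KC888LL (0.0165) or KC893RL (0.0369) and lost without KC872RL (0.214), KC873RR (0.175), KC913RR (0.117), KC916RRL (0.0766), KC934R (0.0736) or KC935LL (0.0639), by edgeR adjusted p. It was also lost with DESeq2 size factors in edgeR (0.0528), without a filter (0.0902), with limma-voom (0.0633), with Xist (0.327) or the oligodendrocyte score (0.622) as a covariate and in a fit of these 8 libraries alone (0.239), so it was kept in 5 of 17 alternatives. The log2 fold change was -0.16 with Xist and -0.20 to -0.27 in the other 16 alternatives. Of the list 7 were higher and 6 lower there at an unadjusted p under 0.05 (22.8%, against 16.9% of tested genes), with a median of 0.033. Without KC888LL these were 8 and 6 (24.6%, against 21.8% of tested genes), with a median of 0.06. With all libraries edgeR called 1 of the 57, Dnm2, where it called 1.16% of tested genes. Without KC888LL it called 2 of the 57, both lower, where it called 6.18% of tested genes.

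On the ketogenic diet 8 of the 57 were higher and 3 lower in KO at an unadjusted p under 0.05 (19.3%, against 9.22% of tested genes) and 0 were called. Slc17a8, the transporter VGLUT3, was at -0.42 ± 0.15 (edgeR adjusted p = 0.433) and the proton pump subunit Atp6v1b2 at 0.25 ± 0.09 (0.434). With the oligodendrocyte covariate Slc17a8 was at -0.27 and Atp6v1b2 at 0.14, and Atp6v1b2 was at 0.16 without KC913RR. In WT mice diet gave Rab3d 0.26 ± 0.08 (edgeR adjusted p = 0.761) and Rab3b -0.42 ± 0.19 (0.893; -0.27 without KC846L), both vesicle GTPases. In the interaction Sh3gl2 (endophilin A1) gave 0.27 ± 0.11 and Syde1 gave -0.52 ± 0.20 (both edgeR adjusted p = 0.654). Slc18a3, the vesicular acetylcholine transporter, was the listed gene that did not pass the filter, with 0 to 6 counts per library.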

How the data were processed

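RNA of 16 mouse hippocampus libraries was sequenced, and the authors deposited 1 table of raw counts per gene and library, whole numbers that are not normalized. The build mm10 and the tool DESeq2 are named per the submitters' processing notes, with no role given; the aligner, annotation, strand setting and versions are not given in the sources used here. Column names gave group and animal but no replicate number, and nothing beyond these tags states separate animals, so p-values measure the spread between these samples.

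Genes were filtered by filterByExpr, scaled by TMM and fitted with edgeR 4.0.16 (R 4.3.3, limma 3.58.1) in a robust quasi-likelihood model with 1 coefficient per group and 12 residual degrees of freedom. Tests were two-sided, p-values were adjusted by Benjamini-Hochberg over 17469 genes, and genes were called at an adjusted p under 0.05. The SE is the log2 fold change divided by the root of F. Positions and exon lengths came from GENCODE M21, which held 48970 of 49315 identifiers. The procedure was tested on simulated counts. DESeq2 1.42.0, limma-voom, other scaling, no filter, covariates and leaving out each library were alternatives. No pair of libraries in a group matched within sampling noise (chi-square per gene 3.73 to 24.2). Members and gene lists were chosen with earlier results of these data known; named genes are those called, or the 2 of smallest p in each direction (1 each for the other presynaptic genes), and further members at an unadjusted p under 0.05 were named after their values were seen.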

Additional observations from a re-analysis of the deposited data

Results flagged for a closer look

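Single libraries stood far from the other 3 of their group in 11 of 156 gene and group combinations (7.05%), by Dixon's criterion on the gap over the range; chance gives about 1 in 20 groups. In WT on the ketogenic diet, KC846L was high for Napa (254.7 CPM, others 204 to 212.4), Syt7 (656.2, others 445.9 to 474.7) and Unc13a (674.7, others 553.8 to 567.3), and low for Rims2 (46.8, others 57 to 59.1). KC846L is also the library of that group with low Xist (8.84 CPM). In the same group KC843RL was high for Rims1 (275.5 CPM, others 238.6 to 240) and Bsn (795.1, others 688.1 to 691.9).

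In WT on the standard diet, KC897RR was low for Synpr (102.2 CPM, others 126.2 to 127.6) and Erc2 (272.3, others 282 to 283.7). In KO on the standard diet, KC893RL was high for Syn2 (699 CPM, others 574.7 to 593.6) and Rims2 (61.1, others 58.7 to 59). In KO on the ketogenic diet, KC934R was high for Vamp1 (160 CPM, others 126.2 to 129).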

How the results depend on the processing

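Without single libraries the members' median log2 fold change ran from -0.105 to -0.045 for KO against WT on the standard diet (-0.078 with all libraries), from 0.014 to 0.059 on the ketogenic diet (0.03, and 0 with Xist), from 0.074 to 0.134 for diet in KO (0.096), from -0.031 to 0.012 for diet in WT (-0.012) and from 0.062 to 0.129 for the interaction (0.102). The calls of diet in KO were lost in 8 of 17 alternatives for Cplx2 and in 12 of 17 for Dnm2. The other 55 single-gene results, apart from those of Kcna1, were not called in the fit reported. The members called moved from 0 to 1 without a filter and with DESeq2, and to 0 to 7 when single libraries were left out, for KO against WT on the standard diet. For that contrast on the ketogenic diet DESeq2 gave 1 member. For diet in KO they moved from 1 to 2 without a filter, 5 with DESeq2, 0 with the Xist covariate, the oligodendrocyte covariate or only the groups compared, and 0 to 5 without single libraries. Genes called in KO against WT on the standard diet (1) became 18 without a filter, 173 with DESeq2, 2 with Xist, 0 with the oligodendrocyte covariate, 0 with only the groups compared and 0 to 1016 without single libraries. On the ketogenic diet (3) they became 11, 41 and 5 without a filter, with DESeq2 and without robust estimation, 0 with the oligodendrocyte covariate and 1 to 13 without single libraries. For diet in KO (202) they became 672 with DESeq2, 7 with Xist, 2 with the oligodendrocyte covariate, 9 with only the groups compared and 28 to 1096 without single libraries. For diet in WT (2) they became 1 with upper-quartile scaling, Xist or the oligodendrocyte covariate, 12 with DESeq2, 0 without robust estimation, 11 with only the groups compared and 0 to 3 without single libraries. The interaction (0) gave 2 without a filter, 4 with DESeq2 and 0 without single libraries. Signs turned with the oligodendrocyte covariate for Doc2a (-0.34) and Stx1a (-0.02) under diet in KO and Vamp1 in the interaction (0.02), and without KC888LL for Kcna1 in the interaction (0.01). In KO the oligodendrocyte score did not overlap between the diets, so that covariate and diet cannot be told apart there. Apart from fewer samples or genes tested, the cause was not tested. No paired analysis was possible because the columns carry animal tags and no replicate numbers. Depth limits Cplx3, with as few as 28 counts.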
